A study of Mus musculus with 3 samples.

Results

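The genes of the activin and TGF-beta pathway described here were measured in cultured mouse peritoneal macrophages. They are the ligand genes Inhba and Tgfb1, the extracellular regulators Fst and Thbs1, the receptor genes Acvr1b, Acvr2a, Tgfbr1 and Tgfbr2, the inhibitory signalling gene Smad7 and the target gene Tgfbi. These are 10 of the 19938 genes that could be named from a probe set carrying a single gene symbol. The set was chosen by measured values, because Inhba was high on the array with intralipid and Tgfbi on the array with ANGPTL4. What follows is therefore a description of these genes and no test of them.

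Activins and TGF-beta are secreted dimers of one protein family. Each binds a type II receptor, which activates a type I receptor, and the receptor complex phosphorylates SMAD transcription factors that enter the nucleus. Follistatin captures activin outside the cell, TGF-beta is secreted in a latent form that must be released, and inhibitory SMADs shut the receptors down. In macrophages, TGF-beta is best known for restraining inflammatory activation, while activin A is made by activated cells.

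All 3 groups were cells of male Angptl4-/- mice of the strain given as C57Bl/6J, so the controls lack ANGPTL4 as well. ANGPTL4 is a secreted protein that inhibits lipoprotein lipase, which frees fatty acids from triglyceride. The cells were washed from the peritoneum after an injection of 4% thioglycollate, an irritant that recruits macrophages, and the adherent cells were cultured before a 6 h exposure. One group received PBS, a second received intralipid, a triglyceride emulsion, at 0.5 mM, and in the third the same intralipid followed 1.5 h with recombinant mouse ANGPTL4 at 2.5 µg/mL. The age of the mice is not given in the sources used here, and neither is a mock pre-incubation of the other groups. No group received ANGPTL4 without intralipid. Where ANGPTL4 is compared with PBS or with intralipid alone below, intralipid plus ANGPTL4 is meant. RNA of 3 samples was pooled on 1 array per group. No spread between cultures can therefore be estimated, no test was run, and every difference below is a difference between 2 arrays.

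The values are deposited log2 expression values, so a difference of 1 is 2-fold. An expression floor was set on each array at the median value of its gene-annotated probe sets. It was 4.98 under PBS and 4.97 on both other arrays. Of the 19938 genes, 10090 reached it on at least 1 array, so reaching the floor is common by construction. The deleted gene, Angptl4, read 4.92 on each array, below the floor, but no array of cells with the gene was analysed here and the place of its probes is not known. Macrophage markers reached the floor for 9 of 10 genes, all but Cd163, and Lyz2 had a log2 value of 12.91 on each array. Of these, Cd14 was higher than with PBS by 2.10 with intralipid and by 1.26 with ANGPTL4 added, and the difference of Fcgr1 from PBS was -0.48 with intralipid and -1.01 with ANGPTL4 added. The other 7 past the floor were less than 2-fold apart in every comparison. Fibroblast markers reached the floor for 6 of 9 genes (Lum, Pdgfrb and Thy1 did not), and their summed linear level ran from 2356 to 2381 over the 3 arrays. The part of these other cells in the results below was not tested. No measured marker of mast cells (6), of T and NK cells (7) or of B cells (4) reached the floor. Of the platelet markers only Pf4 reached it, at a log2 value of 8.17 on each array. Mesothelial markers had 1 of 7 past the floor (Wt1), neutrophil markers 2 of 7 and resident peritoneal macrophage markers 5 of 8. The summed linear level of the resident list was 869 with PBS, 995 with intralipid and 1284 with ANGPTL4 added. None of its genes was 2-fold apart in any comparison. That list holds the ligand gene Tgfb2, and the part of resident cells in its value was not tested. In such cultures, fewer cells of a type and less RNA per cell cannot be told apart.

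Of the 10 genes, 9 reached the floor on all 3 arrays. Fst, which encodes follistatin, did not reach it on any. Against PBS, intralipid was at least 2-fold higher for Inhba, Thbs1 and Smad7 and at least 2-fold lower for Tgfbi, where 2.51% of 10049 genes were higher by that much and 1.32% lower. Between intralipid plus ANGPTL4 and intralipid alone, Tgfbi, Tgfbr1 and Acvr1b were at least 2-fold higher and Inhba, Thbs1 and Smad7 at least 2-fold lower, beside 2.53% and 2.30% of 10064 genes. Between intralipid plus ANGPTL4 and PBS, Tgfbi alone of the 10 was at least 2-fold apart, and it was higher. The shares over 9995 genes were 0.850% higher and 0.0400% lower. Because the genes were picked with these values known, the counts are not read against the shares. Any 2 of the comparisons share an array. A high or low value on the intralipid array, for example, enters the first and the second with opposite sign.

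**Figure D1:**
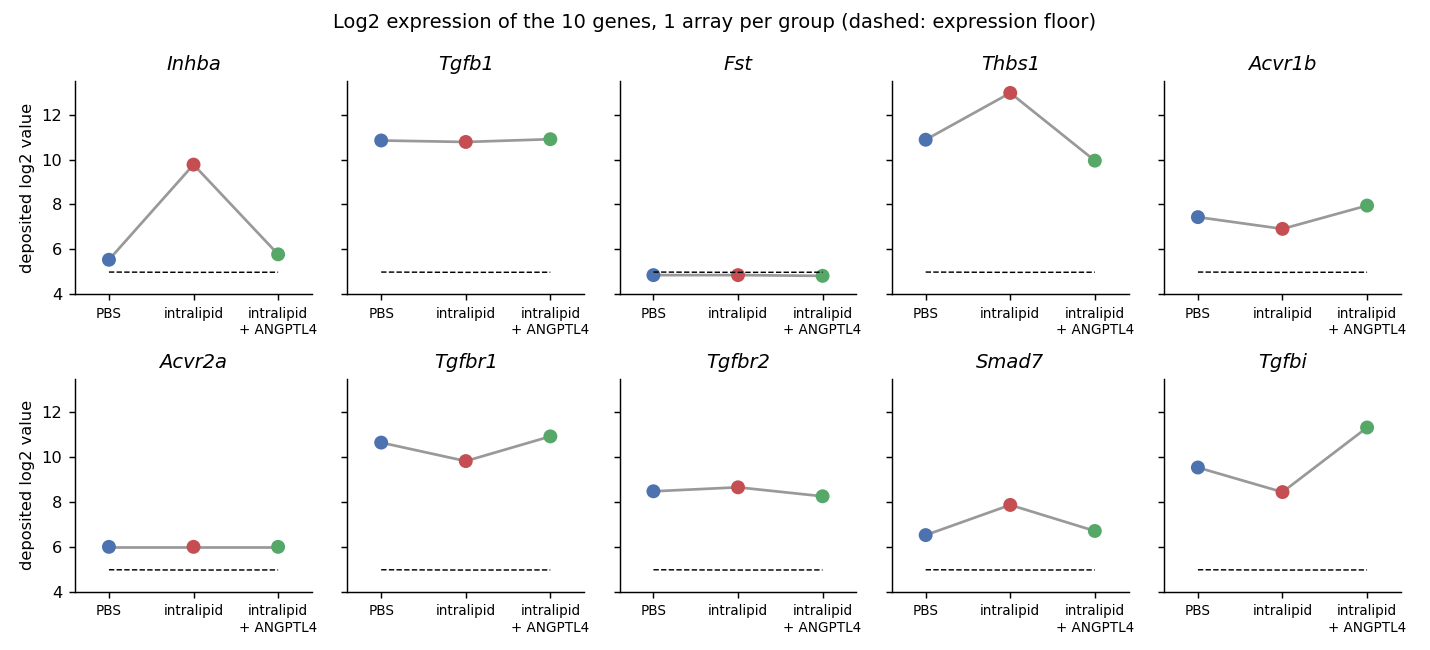
Deposited log2 expression value (vertical axis) of each of the 10 genes on the arrays with PBS (blue), intralipid (red) and intralipid plus ANGPTL4 (green), 1 point per array with no error because each group has 1 array. The dashed line is the expression floor. Inhba, Thbs1 and Smad7 peak on the intralipid array, Tgfbi, Tgfbr1 and Acvr1b are lowest there, and Acvr2a is flat.

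Inhba encodes the beta A subunit, whose dimer is activin A. PBS gave a log2 value of 5.53, intralipid one of 9.77 and ANGPTL4 with intralipid one of 5.77. The intralipid array stood far above the other two, which lay close to each other and within 1 log2 unit of the floor. Inhba was 19.0-fold higher with intralipid than with PBS, rank 3 from the top of 10049 genes. With ANGPTL4 it was 16.0-fold lower than under intralipid alone, rank 5 from the bottom of 10064, and 1.18-fold above PBS. These folds rest on PBS and ANGPTL4 values close to background.

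The Inhba promoter window, 250 bases before to 50 after the RefSeq start at chr13:16011601-16011900 (GRCm38.p6, plus strand), is shown because Inhba had the largest difference of the set. Capitals mark the letters TATAAA, which begin 91 bases before the start.
Inhba promoter: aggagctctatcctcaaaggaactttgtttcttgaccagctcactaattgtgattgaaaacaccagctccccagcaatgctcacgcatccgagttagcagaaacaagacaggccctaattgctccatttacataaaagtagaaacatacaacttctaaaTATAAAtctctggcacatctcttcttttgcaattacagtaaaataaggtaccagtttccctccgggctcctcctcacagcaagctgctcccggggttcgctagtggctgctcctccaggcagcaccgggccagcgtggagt
The 4 motifs searched on both strands were an AP-1 site (TGANTCA), a CRE core (TGACGT), a SMAD element (CAGACA) and a TATA box (TATAAA). The TATA box letters gave the only match in this window, and 13.6% of the 32851 mouse promoter windows hold them. The other motifs are held by 7.81% (AP-1), 7.51% (CRE core) and 21.0% (SMAD element) of the windows. RefSeq windows were given for 7 of the 10 genes.

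Tgfb1, the TGF-beta isoform most associated with immune cells, was level by comparison. Its log2 value was 10.85 under PBS, 10.78 under intralipid and 10.91 when ANGPTL4 was added to intralipid, a spread no larger than 0.12 between any pair of arrays. Over all genes past the floor, the robust SD of the differences was taken from the central 68% of genes. It was 0.20 for intralipid against PBS, 0.23 for ANGPTL4 against intralipid alone and 0.10 for ANGPTL4 against PBS. The differences of Tgfb1 were smaller than this SD each time. Those of Inhba were larger, but Inhba was picked for its high value with intralipid. Of the 12 measured ligand genes of this branch, 5 reached the floor. The other three were Tgfb2, Tgfb3 and Gdf3, and their differences between intralipid and PBS were 0.23, -0.05 and -0.23. The genes of the other activin and inhibin subunits (Inhbb, Inhbc, Inhbe and Inha) stayed below the floor on every array, so Inhba was the only subunit gene past it. Among BMP ligands, 1 of 10 reached the floor (Gdf7), with the identical value on each array.

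Thbs1 encodes thrombospondin 1, a matrix glycoprotein that can release TGF-beta from its latent complex. Its log2 value was 10.88 under PBS, 12.97 under intralipid and 9.95 when ANGPTL4 was added to intralipid. All values lay well above the floor, with the intralipid array highest and the ANGPTL4 array lowest. The gene was 4.25-fold higher with intralipid than with PBS and 8.12-fold lower with ANGPTL4 than without it under intralipid, rank 18 from the bottom of 10064 genes. Unlike Inhba, Thbs1 was below its PBS level with ANGPTL4, by 1.91-fold. That was rank 5 from the bottom of 9995 genes in a comparison where 4 genes were at least 2-fold lower. Fst, the antagonist of activin, had log2 values of 4.84, 4.84 and 4.81, all just under the floor, so nothing can be said of its change.

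**Figure D2:**
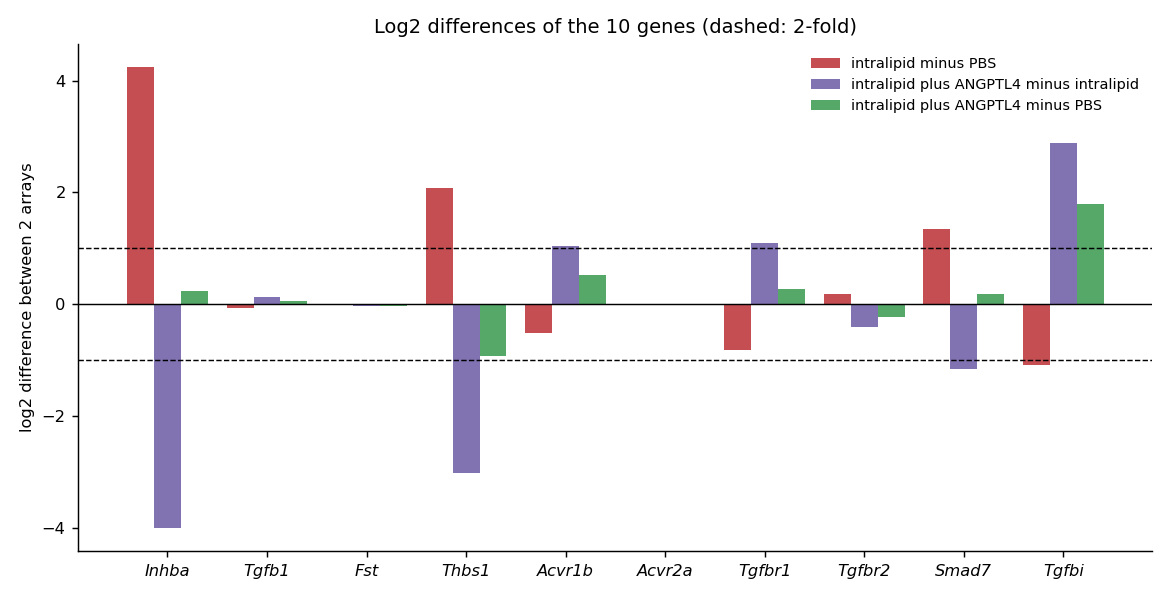
Log2 difference between 2 arrays (vertical axis, 0 for no difference) for each of the 10 genes in the 3 comparisons. Bars are single differences with no error, and dashed lines mark 2-fold. Inhba spans 4.24 to -4.00, and only Tgfbi passes 2-fold against PBS with ANGPTL4.

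Lrrc32 and Mmp14 joined Thbs1 as genes of latent TGF-beta handling that were at least 2-fold apart. Lrrc32 encodes GARP, which tethers latent TGF-beta to the cell surface. It had log2 values of 4.68, 7.00 and 5.16 in the order PBS, intralipid and intralipid plus ANGPTL4. With PBS it was below the floor, so intralipid was at least 4.05-fold higher when set against the floor, and ANGPTL4 was 3.57-fold lower than intralipid alone. Mmp14, a membrane-bound matrix protease, ran the other way with log2 values of 11.16, 10.30 and 11.86. It was 1.81-fold lower with intralipid than with PBS and 2.94-fold higher with ANGPTL4 than under intralipid alone. Among the remaining genes of this role, the integrin subunit gene Itgav had log2 values of 9.33, 9.10 and 9.70. Differences were smaller for Furin, a protease that processes the precursors, and Ltbp3, which binds latent TGF-beta, at -0.04 and 0.02 for intralipid against PBS. Over the 9 genes of this role past the floor the median difference was 0.00, as it was over all genes, in each of the 3 comparisons.

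The type I receptor genes past the floor were lowest with intralipid. Tgfbr1, the type I receptor of TGF-beta, had log2 values of 10.65 under PBS, 9.83 under intralipid and 10.93 when ANGPTL4 was added. It was 1.77-fold lower with intralipid than with PBS and 2.15-fold higher with ANGPTL4 than under intralipid alone. Acvr1b, the main type I receptor of activin, had log2 values of 7.43, 6.91 and 7.95. It was 1.44-fold lower with intralipid and 2.06-fold higher with ANGPTL4 against intralipid alone, the member closest to the 2-fold limit. After quantile normalization that log2 difference was 0.98, below the limit. With ANGPTL4, Acvr1b was 1.43-fold and Tgfbr1 1.21-fold above PBS. The BMP and activin receptor gene Acvr1 had log2 values of 6.09, 5.82 and 6.11 and Acvrl1 values of 7.19, 7.16 and 7.35, the same order of arrays with smaller steps. All 4 type I receptor genes past the floor were lower with intralipid than with PBS, by 0.03 to 0.82, with a median of -0.40. Of all genes past the floor, 44.4% were lower, 23.5% higher and the rest equal, with a median of 0.00. Against intralipid alone, ANGPTL4 was higher for all 4 with a median of 0.66, where 46.3% of all genes were higher and 23% lower. Nothing is read from these counts and medians, because Tgfbr1 and Acvr1b were picked with their values known. The other 3 of the 7 measured (Acvr1c, Bmpr1a and Bmpr1b) were below the floor on every array, and with them the medians were -0.028 and 0.19.

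Type II receptor genes differed less between arrays. Tgfbr2, which binds TGF-beta first and recruits Tgfbr1, had log2 values of 8.48 under PBS, 8.66 under intralipid and 8.26 when ANGPTL4 was added. The order was opposite to that of Tgfbr1, highest with intralipid and lowest with ANGPTL4, and the largest step was 1.32-fold. Acvr2a, a type II receptor of activin, had the identical value of 6.00 on all 3 arrays. Identical values were common, at 25.1% of the genes that reached the floor on at least 1 array, so they do not show that a transcript was unaltered. Bmpr2, the type II receptor of BMPs, had log2 values of 8.05, 8.00 and 8.03, and Acvr2b had 5.02 on each array. The 5 co-receptor and decoy genes past the floor, among them Eng, Bambi and Rgmb, differed by at most 0.37 in any comparison.

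**Figure D3:**
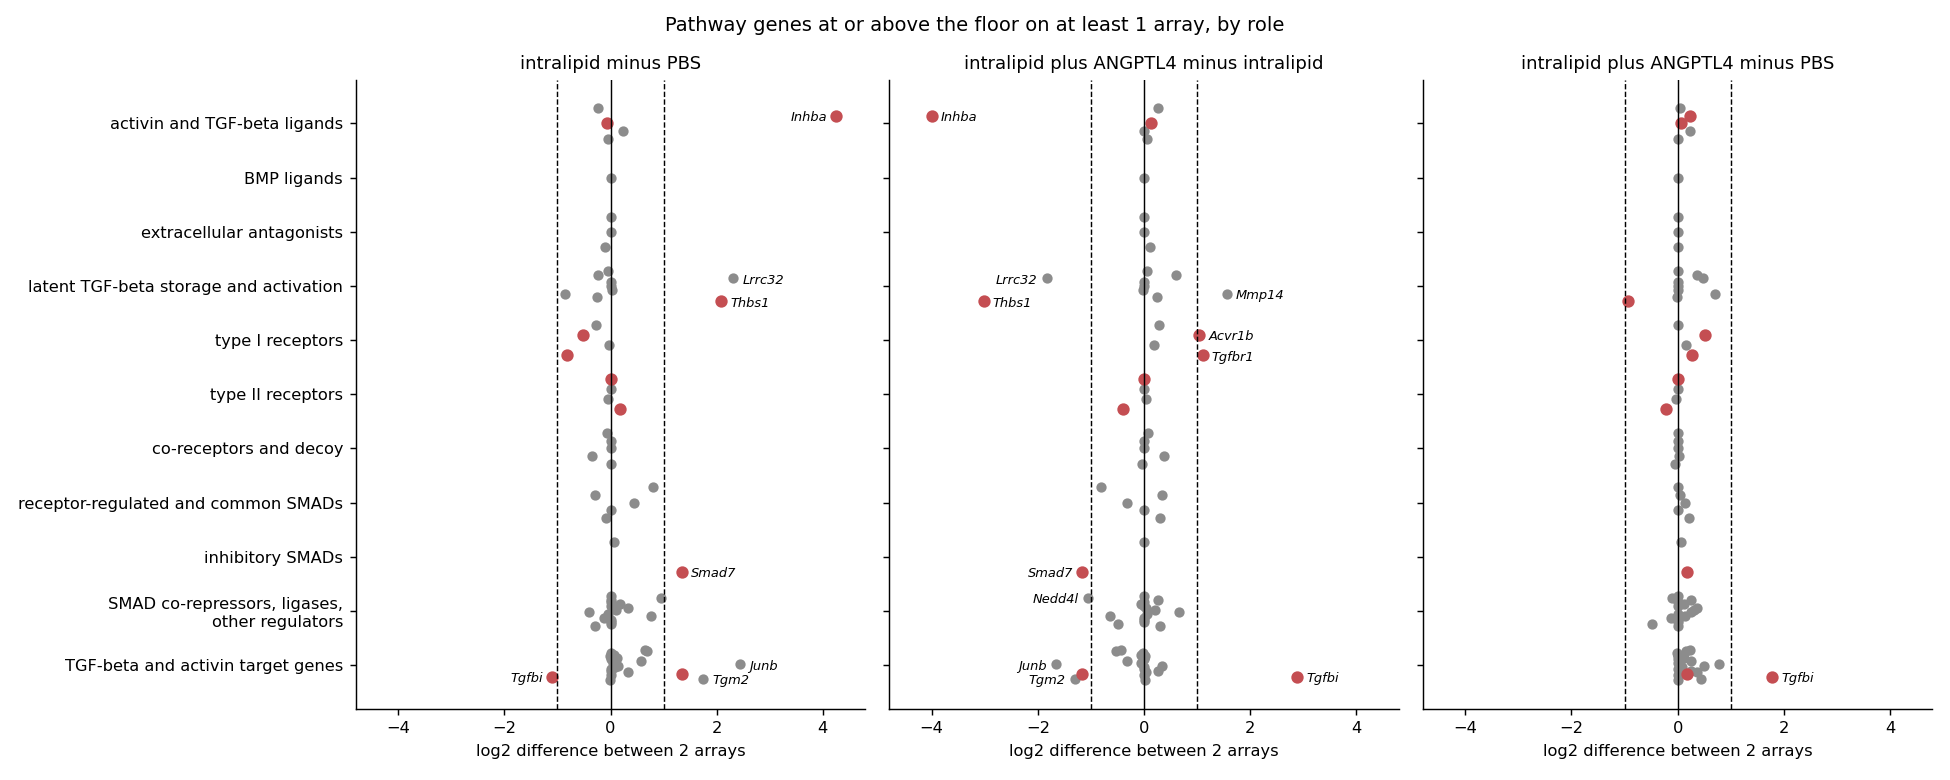
Log2 difference between 2 arrays (horizontal axis) of the pathway genes that reached the floor on at least 1 array, 1 row of points per role and 1 panel per comparison. Red points are genes of the set of 10, grey points the others, dashed lines mark 2-fold and names are given past it (Smad7, in both of its roles, is named once). Most genes lie near 0, and the type I receptor genes lie left of 0 with intralipid and right of it with ANGPTL4.

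Smad7 encodes the inhibitory SMAD that blocks type I receptors and is itself switched on by TGF-beta. Its log2 value was 6.53 under PBS, 7.87 under intralipid and 6.71 when ANGPTL4 was added to intralipid. Intralipid was the high array, 2.54-fold above PBS, and the ANGPTL4 array was 2.24-fold below intralipid alone and 1.14-fold above PBS. Smad6, the inhibitory SMAD of BMP signalling, stayed between 6.06 and 6.13. Among the signalling SMADs, Smad1 was highest with intralipid (log2 values of 6.50, 7.31 and 6.50) and Smad3, which carries activin and TGF-beta signals, less so (6.12, 6.56 and 6.25). Smad2 had values of 7.72, 7.42 and 7.77, and Smad4, the partner of all receptor-regulated SMADs, was flat at 8.95. None of these was 2-fold apart. Of the 16 regulators, Nedd4l, a ubiquitin ligase that acts on SMAD proteins and receptors, was 1.94-fold higher with intralipid than with PBS and 2.08-fold lower with ANGPTL4 than under intralipid alone. The co-repressor gene Tgif1 had log2 values of 10.05, 10.82 and 10.18, and Skil values of 9.44, 9.77 and 9.80.

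Tgfbi encodes a secreted matrix protein first found as a TGF-beta-induced transcript. Its log2 value was 9.54 under PBS, 8.44 under intralipid and 11.32 when ANGPTL4 was added to intralipid. The 3 arrays were all apart, lowest with intralipid and highest with ANGPTL4. Tgfbi was 2.14-fold lower with intralipid than with PBS, rank 92 from the bottom of 10049 genes. With ANGPTL4 it was 7.37-fold above intralipid alone, rank 5 from the top of 10064, and 3.44-fold above PBS, rank 18 from the top of 9995. Its promoter window at chr13:56609336-56609635 (RefSeq, GRCm38.p6, plus strand) is shown because Tgfbi had the largest difference upward with ANGPTL4 in the set, and it has no capitals because it held 0 matches to the 4 motifs.
Tgfbi promoter: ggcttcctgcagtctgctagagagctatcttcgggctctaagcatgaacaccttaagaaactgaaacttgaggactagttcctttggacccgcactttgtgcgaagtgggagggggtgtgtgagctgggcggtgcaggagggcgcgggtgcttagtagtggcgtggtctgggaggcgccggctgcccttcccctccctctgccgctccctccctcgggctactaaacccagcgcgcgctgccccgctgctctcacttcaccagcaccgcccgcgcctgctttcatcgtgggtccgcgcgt
Its GC content was 63.3% beside 47.7% for Inhba, with a median of 52.7% over all windows. The absence of these letters says nothing of the factors that bind there.

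Smad7 and Tgfbi, both listed as TGF-beta targets, thus lay on opposite sides of PBS with intralipid. Of 20 measured targets, all past the floor, 3 were at least 2-fold higher with intralipid than with PBS (Smad7, Junb and Tgm2) and 1 lower (Tgfbi). That is 15% and 5% of the targets beside 2.51% and 1.32% of all genes, and nothing is read from it because Smad7 and Tgfbi were picked with their values known. Junb, an AP-1 subunit, had log2 values of 6.03, 8.47 and 6.81 in the order PBS, intralipid and intralipid plus ANGPTL4. Tgm2, a transglutaminase that cross-links matrix, had values of 10.65, 12.40 and 11.10. Both were highest with intralipid, and with ANGPTL4 they were 3.15-fold and 2.47-fold lower than under intralipid alone. Ccn2, a matricellular protein gene often used as a TGF-beta readout, was 1.61-fold higher with intralipid and 1.45-fold lower with ANGPTL4 against intralipid alone. The matrix genes differed less: Fn1 had values of 11.05, 11.17 and 11.18, and Col1a2 values of 9.79, 9.77 and 9.79. Col1a2 is also one of the fibroblast markers, and the part of fibroblasts in its value was not tested. Id2, an inhibitor of basic helix-loop-helix factors, had values of 10.96, 11.53 and 11.21. The median difference of the 20 was 0.07 for intralipid against PBS, 0.00 for ANGPTL4 against intralipid alone and 0.14 for ANGPTL4 against PBS, and that of all genes was 0.00 each time. Many of these targets also have inducers other than TGF-beta.

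Apart from the set of 10, the 11 role lists held 92 measured genes, of which 61 were past the floor. In that wider pathway 3 genes (Lrrc32, Junb and Tgm2) were at least 2-fold higher with intralipid than with PBS and 0 were lower, which is 4.92% and 0% of the 61 beside the shares over all genes given above. Against intralipid alone, ANGPTL4 was at least 2-fold higher for Mmp14 (1.64%) and lower for Lrrc32, Junb, Tgm2 and Nedd4l (6.56%). Between ANGPTL4 and PBS, 0 were 2-fold apart in either direction, the largest being Junb at 1.72-fold. With 1 array per group these small counts cannot be set apart from the background shares.

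**Figure D4:**
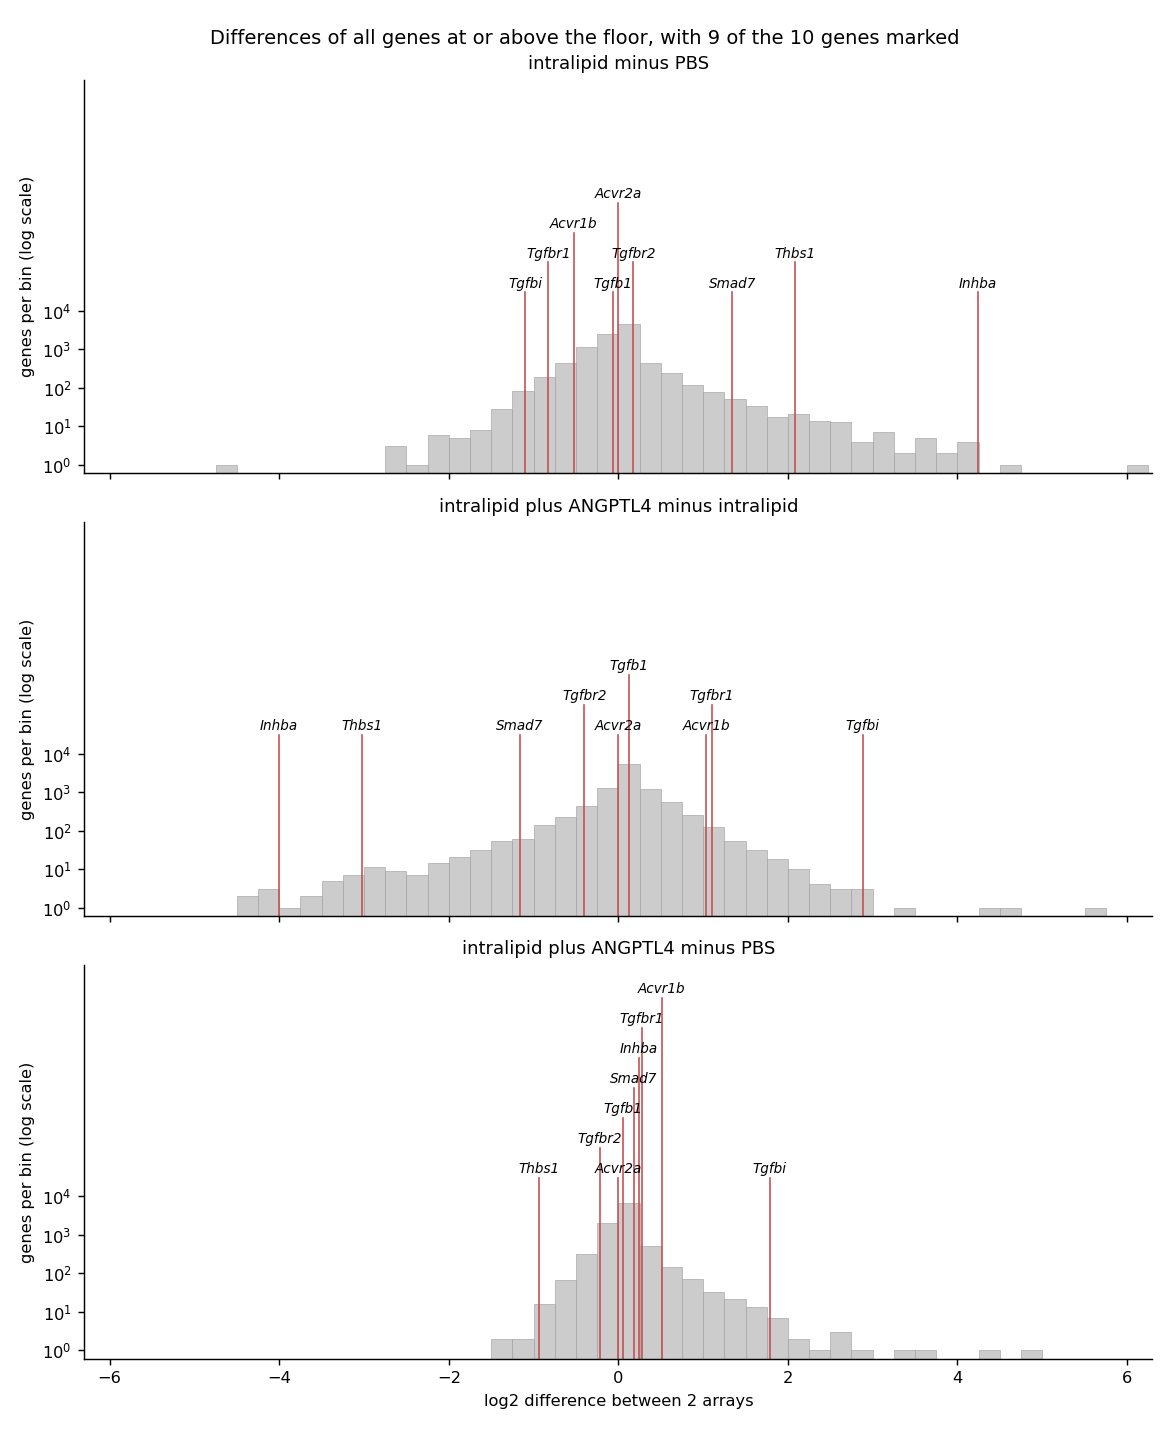
Number of genes (vertical axis, log scale) per bin of 0.25 in the log2 difference between 2 arrays (horizontal axis), over all genes at or above the floor on at least 1 of the 2 arrays, 1 panel per comparison. Red lines mark 9 of the 10 genes, and their height only separates the names. Inhba lies in a tail in the top and middle panels, and Thbs1 and Tgfbi do so in each panel. Tgfb1 and Acvr2a lie near the centre. Of the marked genes, only Tgfbi lies past 1 in the bottom panel.

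The genes whose pair of differences from PBS lay nearest to that of Inhba, by Euclidean distance in log2 units over 9751 genes, were Fosb (0.35), Osm (0.35), Dusp10 (0.39), Il6 (0.51) and Lsmem1 (0.55). For Tgfbi they were AW112010 (0.26), Clec5a (0.38), Icam1 (0.44), Rassf4 (0.51) and Zc3h12c (0.53). None of these genes is in the pathway lists. With 3 arrays, likeness rests on 2 differences per gene, and AW112010 was below the floor with intralipid. Fosb, Il6 and Lsmem1 were below the floor both with PBS and with ANGPTL4 added, so 1 of their 2 differences lies wholly under it.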

How the data were processed

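Transcripts were measured on 3 Affymetrix arrays, 1 per group, each with RNA pooled from 3 samples. The authors deposited 1 log2 value per probe set and array, computed with RMA per the submitters' processing notes. Neither its version, the chip definition nor the genome build is given in the sources used here. RMA sets the arrays to a shared distribution, so differences are relative. The number of arrays limits the precision.

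From 35556 probe sets, 21789 with 1 gene symbol in GEO's platform annotation gave 19938 genes, each by its probe set with the highest mean. Each of the 10 genes had 1 probe set. Values were used as deposited (Python 3.11.15). Genes count as 2-fold apart where the log2 difference is at least 1 and the higher array reaches its floor. The counting was tried on simulated data with differences well past the limit, in genes clear of the floor. That trial says nothing of genes near the limit or the floor. Named genes are the 10 members, pathway genes 2-fold apart in any comparison, up to 4 more per role with the highest values, 5 nearest profiles each for Inhba and Tgfbi, and up to 3 markers per list. The text also names genes below the floor and a few further genes chosen after their values were seen. Of 97 further listed genes, 5 had no probe set of their own and were not used. Members and lists were chosen with earlier results of these data known. Alternatives were a 1.5-fold limit, other floors, 3 rescalings (limma 3.58.1) and the mean over probe sets.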

Additional observations from a re-analysis of the deposited data

How the results depend on the processing

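No paired analysis was possible because each group had 1 array. The 10 genes were recomputed with arrays centred on their medians, quantile or cyclic loess normalization, and the mean over probe sets. The mean left its 30 differences unaltered by construction, because each of the 10 genes had 1 probe set. All 120 differences moved by less than the robust SD over genes, by at most 0.065. Under these settings and both other floors, 3 of the counts at 2-fold changed, each by 1 gene. Quantile normalization left 2 of the 10 genes, not 3, higher with ANGPTL4 than under intralipid alone, as Acvr1b came to 0.98. The floor at the 75th percentile left 2 wider pathway genes higher with intralipid than with PBS and 3 lower with ANGPTL4 than under intralipid alone, without Lrrc32. At a limit of 1.5-fold, 2 of the 10 genes were lower with intralipid than with PBS and 1 was lower with ANGPTL4 than with PBS. In the wider pathway that limit gave 8 higher and 1 lower for intralipid against PBS. It gave 3 higher and 6 lower for ANGPTL4 against intralipid alone, and 2 higher and 0 lower for ANGPTL4 against PBS. A lower limit admits more genes by construction.

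Medians of short lists moved with the floor, which changes the genes they cover. Without a floor, the type I receptor medians were -0.028 for intralipid against PBS, 0.19 for ANGPTL4 against intralipid and 0.016 for ANGPTL4 against PBS. With the floor at the 75th percentile, the type I receptor medians were -0.67 and 1.04 in the first 2 comparisons. That floor gave activin and TGF-beta ligands 2.09 and -1.94, and inhibitory SMADs 1.34 and -1.16. The type II receptor median for ANGPTL4 against PBS became -0.12. Inhba and Lrrc32 lie near background on some arrays and Fst on every array, where folds are least certain.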
